A study of Mus musculus with 20 samples.

Results

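Phase II detoxification transferases were followed in mouse intestinal tissue on expression arrays, as the 60 genes whose array name marked them as a cytosolic glutathione transferase (Gsta, Gstm, Gsto, Gstp, Gstt, Gstz), a kappa class glutathione transferase (Gstk), a microsomal glutathione transferase (Mgst), a UDP-glucuronosyltransferase (Ugt) or a sulfotransferase (Sult). They carried 90 probes among 25034 named genes. Testing needed the gene's brightest probe over all arrays to be marked by the scanner software as well above background. The mark was needed on 6 or more of the 12 arrays of the oncogene comparison, or 4 or more of the 8 of the drug comparison. This left 45 transferase genes in each, among 19037 and 19230 genes of all kinds. The 15 genes that were tested in neither were Gstt4, Sult1e1, Sult2a1, Sult2a2, Sult2a3, Sult2a4, Sult2a5, Sult2a6, Sult2a7, Sult3a1, Sult3a2, Sult6b1, Ugt2b1, Ugt3a1 and Ugt8a. At the edge of that requirement, Sult5a1 was well above background on 9 of 12 and 8 of 8 arrays, while Sult1e1 was so on 4 of 12 and 1 of 8 and stayed out.

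The study compared 4 groups of C57BL6/j mice, 1 array of intestinal tissue per sample. In the first comparison, 6 BRAFV600E samples (VillinCreER mice with 1 Braf allele that expresses the V600E oncogene once Cre has been active) were set against 6 Cre control samples, from mice with the same Cre and normal Braf. Both groups received tamoxifen, were young adults, and were killed a few days after the last dose. In the second, 4 samples from mice treated with the MEK inhibitor PD184352 (MEKi) were set against 4 from mice given its solvent (Vehicle), in which tamoxifen had been given on the days before. The labels give no genotype for these 8 samples, and the study's legends describe them as BRAFV600E mice. The Villin promoter drives Cre in gut epithelium, whereas the RNA came from whole tissue with muscle, immune cells and connective tissue, so that fewer cells of a type and less RNA per cell cannot be told apart. A treatment text on the labels of all 20 samples describes an atorvastatin experiment in female mice, matched none of the 4 groups, and was not used. The study's methods describe the samples of the first comparison as separate mice, as many males as females in each group. Y-linked signal was high on 4 of 6 BRAFV600E arrays, which is not that even split. The labels give the MEKi and Vehicle samples as separate samples without saying more, so p-values measure the spread between these samples.

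Phase II enzymes attach a polar group to foreign chemicals, drugs, bile pigments, hormones and products of lipid oxidation, which makes them soluble enough to be pumped out of the cell. Glutathione transferases use the tripeptide glutathione, UDP-glucuronosyltransferases use glucuronic acid carried by UDP, and sulfotransferases use the sulfate donor PAPS. The small intestinal enterocyte, which meets swallowed chemicals first, is rich in all these classes, and many of their genes are known to respond to the stress-activated transcription factor NRF2 or to nuclear receptors that sense foreign compounds.

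The genes lie in families of close copies, and the probe sequences below show what the array could and could not tell apart. Each is a 60-base probe, given with its mm9 position and in the direction of the transcript. The Gsta4 probe (chr9:78046172-78047344, plus strand) crossed a splice junction of coding exons, the Sult6b2 probe (chr6:142734847-142734906, minus strand) lay in coding sequence, and these are shown because they measured the genes with the largest increases.
Gsta4: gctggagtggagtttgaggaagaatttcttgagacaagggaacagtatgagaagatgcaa
Sult6b2: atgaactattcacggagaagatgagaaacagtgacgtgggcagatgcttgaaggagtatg

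The Ugt1a genes share their last exons and differ in the first, so that a probe in the shared exons reads several of them together. The brightest Ugt1a6b probe lies there and is listed for 4 genes. The Ugt1a10 probe (chr1:89952780-89952839, plus strand) and one of the Ugt1a6b probes (chr1:90004249-90004308, plus strand, the dimmest of 3) lay in first exons and are shown as the sequences in which these genes differ.
Ugt1a10: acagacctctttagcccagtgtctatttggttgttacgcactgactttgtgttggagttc
Ugt1a6b: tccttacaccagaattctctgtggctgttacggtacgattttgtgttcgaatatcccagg
The files list more than 1 gene for the probes that stand for Gstp1, Sult2a1, Sult2a2, Sult2a3, Sult2a4, Ugt1a10, Ugt1a6a, Ugt1a6b, Ugt2a1 and Ugt2b36, and the values of these 10 genes may be shared with a relative. Binding of a probe to other close copies was not tested for the remaining members.

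Levels below are log2 of the processed signal minus the 75th percentile of the array, and are compared between samples for 1 probe at a time. A difference is a log2 fold change from limma with its standard error (SE), and a gene was called where its p, adjusted by Benjamini-Hochberg over all genes tested, was under 0.05.

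Between 60.8% and 76.8% of probes were well above background per array. The mean level of the enterocyte marker list was 5.35 to 6.88 over the 20 arrays, that of proximal small intestine 4.51 to 5.96, of distal small intestine −1.67 to 1.08 and of colon −2.31 to −0.93. Levels of different probes cannot be set against each other, so these do not say which stretch of gut was sampled. Genes of exocrine pancreas had a mean level of 6.87 on Vehicle replicate 2 and of −5.15 to −3.72 on the other 19 arrays. BRAFV600E replicate 2 had the lowest enterocyte (5.35), proximal (4.51) and Paneth cell (3.86) means of its group. In BRAFV600E tissue 4 of 5 Paneth markers fell, and the list's level was 3.86 to 6.17 against 6.60 to 7.13 in Cre control. Of 12 enterocyte markers Alpi and Rbp2 rose, while the list's median log2 fold change was −0.42. Also called were 1 of 6 proximal markers higher, 1 of 6 distal markers higher and 1 lower, 1 of 6 colonocyte markers lower, 1 of 5 hepatocyte markers higher and 2 lower, 3 of 7 goblet markers lower and 1 higher, 3 of 6 stem cell markers lower, 2 of 7 enteroendocrine, 2 of 6 tuft and 2 of 5 T lymphoid markers lower, and 2 of 6 smooth muscle markers higher, while under MEKi only Ascl2 was called, as higher. Of all genes, 6.19% were called higher and 6.27% lower in BRAFV600E tissue, and 1.09% higher and 0.884% lower under MEKi. The part of these cell types in the results was not tested. Y-linked genes were high on 3 of 6 Cre control, 4 of 6 BRAFV600E, 4 of 4 MEKi and 2 of 4 Vehicle arrays (mean −1.30 to −0.96, against −6.25 to −4.92 on the other 7). By this signal MEKi and Vehicle differed in their share of males, so that sex and drug are partly confounded. Slide 1 carried every Cre control array together with replicates 1 and 2 of BRAFV600E, slide 2 replicates 3 to 6 of BRAFV600E, and slide 3 all MEKi and Vehicle arrays, where MEKi filled 1 row and Vehicle the other, so that row and drug cannot be told apart.

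The first comparison asks what the oncogene changed within days of its expression. Of the 45 transferase genes, 12 were called (26.7%), 6 higher and 6 lower in BRAFV600E tissue. Of all 19037 genes tested, 12.5% were called, 6.19% higher and 6.27% lower. By family, the 3 alpha class genes Gsta2, Gsta3 and Gsta4 rose, as did Gstt2, Gstt3 and Sult6b2, whereas Gstm1, Gstm2 and Gstm3 of the mu class, Sult1a1, Sult4a1 and Ugt2a3 fell. Over the 45 members the log2 fold changes were nearly balanced, 24 positive and 21 negative, with a median of 0.07 beside −0.02 over all genes, and their median size was 0.39 beside 0.31. The groups did not overlap for 7 members (15.6%, beside 7.36% of all genes), 3 of them higher and 4 lower in BRAFV600E tissue, beside 4.19% and 3.17% of all genes. At an unadjusted p under 0.05 there were 19 members, beside 30.1% of all genes. Directions are relative to the scaling: without it the median of all genes was 0.79, and 18 members turned from negative to positive. Among the called genes these were Gstm2, Sult1a1 and Sult4a1. All 3 stayed below that median, as they had to, because leaving out the scaling moves them by the same amount. The count of calls was 6 without Cre control replicate 2, and 8 without Cre control replicate 3 or BRAFV600E replicate 6.

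The second comparison asks what blocking MEK, the kinase below BRAF, did to the same genes. Gsta2 was called, lower in MEKi, and no other member was. That is 1 of 45 (2.22%), beside 1.98% of all 19230 genes tested (1.09% higher and 0.884% lower). The signs leaned one way, with 38 members negative and 7 positive and a median log2 fold change of −0.27 beside 0.04 over all genes. Vehicle replicate 2, the array with pancreatic transcripts, was the highest of its group for 26 of the 45 members. For the 12 UDP-glucuronosyltransferases the median was −0.74 with all arrays (11 negative) and −0.08 without this one (9 negative). Its part in the lean over all 45 members was not tested. At an unadjusted p under 0.05 there were 8 of the 45 members, beside 16.4% of all genes. For 6 members (13.3%, beside 12.2% of all genes, 6.44% above and 5.76% below) the MEKi and Vehicle arrays did not overlap, Sult1b1 above and Gsta2, Gsta4, Sult1a1, Sult1d1 and Sult6b2 below, the last of them well above background on 2 of 4 MEKi arrays. The count of calls was 3 without Vehicle replicate 2 (Gsta2, Gsta4 and Sult6b2) and 0 or 1 without any other single array. That call of Sult6b2 rests on MEKi values at or near background.

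**Figure D1:**
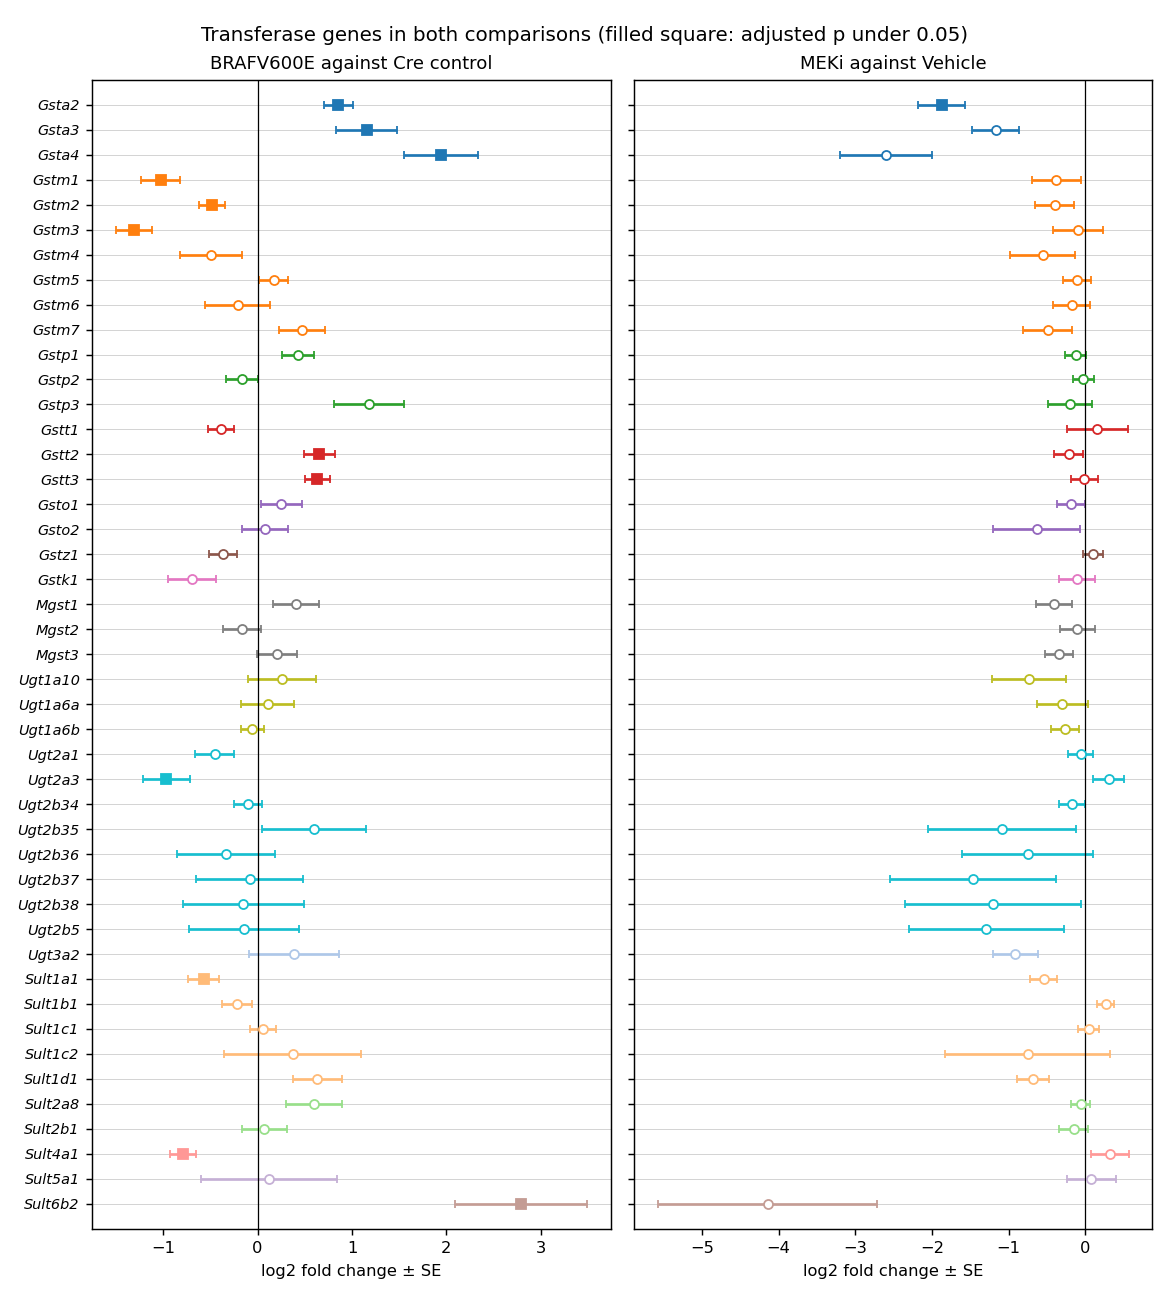
Log2 fold change (x axis, ± SE) of the 45 tested transferase genes, coloured by family, in BRAFV600E against Cre control (left, 6 arrays a group) and MEKi against Vehicle (right, 4 a group), with filled squares for genes called by limma. The 12 squares on the left fall on both sides of 0, and the single square on the right is Gsta2 at −1.88.

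The alpha class glutathione transferases, which conjugate glutathione to electrophiles and, in the case of Gsta4, to the lipid oxidation product hydroxynonenal, had all 3 genes called higher in BRAFV600E tissue, Gsta3 less steadily than the others (called in 10 of 25 fits). Gsta4 had a level of 0.91, 1.71 and 2.39 (lowest, median and highest) in Cre control and of 2.96, 3.46 and 5.40 in BRAFV600E. Every BRAFV600E array lay above every control, and Gsta4 was 3.85-fold higher (log2 1.94, SE 0.39, limma adjusted p = 0.00869). Gsta2 ran from 5.82 (median 6.39) to 6.62 in Cre control and from 6.89 (median 7.25) to 7.34 in BRAFV600E, again without overlap. Its log2 fold change was 0.86 (SE 0.15, limma adjusted p = 0.0042), or 1.81-fold. Gsta3 ran from −0.30 (median 0.38) to 1.58 in Cre control and from 1.11 (median 1.78) to 2.34 in BRAFV600E, where 4 of 6 arrays exceeded every control. Its log2 fold change of 1.16 (SE 0.33) passed at an adjusted p of 0.0373 in limma. It lost the call with slide as a block (0.0642), with quantile normalization (0.0514), and without any of 8 single arrays. A second Gsta3 probe gave 1.46, and another, dim one gave −0.23.

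The same 3 genes had the most negative MEKi values among glutathione transferases. Gsta2 had levels of 4.88, 5.13, 5.40 and 6.33 on the MEKi arrays and 7.17, 7.68, 7.27 and 7.12 on the Vehicle arrays. All 4 MEKi arrays were below all 4 Vehicle arrays, which made Gsta2 3.67-fold lower (log2 −1.88, SE 0.31, limma adjusted p = 0.0263). The call was lost when the Y-linked signal entered as a covariate (log2 fold change −1.79, limma adjusted p = 0.131), without any scaling between arrays (0.0578), and when any of 6 arrays was left out (MEKi replicates 1, 2 and 3, Vehicle replicates 1, 3 and 4; adjusted p 0.0524 to 0.0831), with log2 fold changes of −1.94 to −1.69 in those fits.

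Gsta4 had levels of 0.59, 0.77, 0.96 and 1.91 under MEKi and 2.90, 5.53, 2.89 and 3.30 in Vehicle. The groups did not overlap, but Vehicle replicate 2 stood far above its group, and the log2 fold change of −2.60 (SE 0.61) had a limma adjusted p of 0.0792. Without Vehicle replicate 2 it was −1.97, with an adjusted p of 0.0315. Gsta3 had levels of 0.93, 0.90, 0.29 and 1.64 under MEKi and 2.26, 1.54, 2.11 and 2.54 in Vehicle, which overlapped, and the difference of −1.17 (SE 0.31) did not pass (adjusted p = 0.113 in limma).

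**Figure D2:**
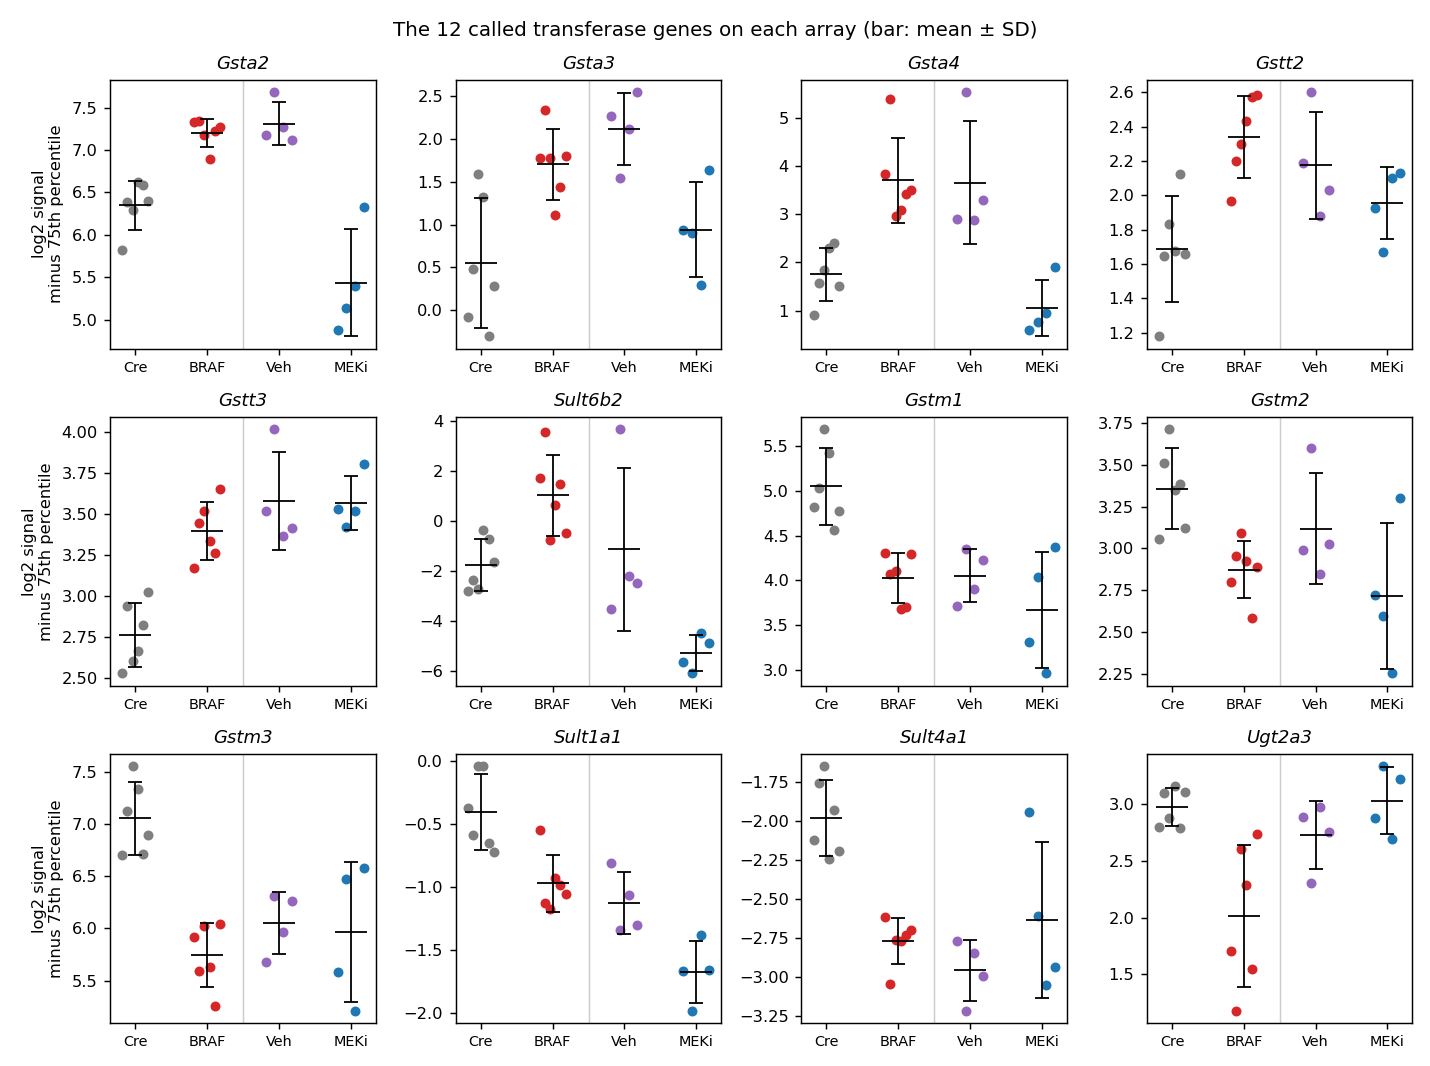
Level of the 12 transferase genes called in BRAFV600E against Cre control (log2 signal minus the 75th percentile of the array, y axis scaled per gene) on every array, with group mean and SD; Cre and BRAF have 6 arrays each, Vehicle (Veh) and MEKi 4 each. Gsta2, Gsta4 and Gstt3 lie wholly above the controls in BRAFV600E, and Gstm1, Gstm3, Sult4a1 and Ugt2a3 wholly below.

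The mu class, a second set of cytosolic glutathione transferases with broad and overlapping substrates, went the other way: 3 of 7 genes were called lower and none higher. Of all genes, 6.27% were called lower and 6.19% higher. Gstm3 ran from 6.70 (median 7.01) to 7.55 in Cre control and from 5.25 (median 5.78) to 6.04 in BRAFV600E. No BRAFV600E array reached the lowest control, and Gstm3 was 2.48-fold lower (log2 −1.31, SE 0.19, limma adjusted p = 0.00136). Gstm1 ran from 4.57 (median 4.93) to 5.69 in Cre control and from 3.68 (median 4.09) to 4.31 in BRAFV600E, also without overlap, and fell by 1.02 (SE 0.20, limma adjusted p = 0.00869). The Gstm1 value carries a doubt, since the brighter probe that stands for it is placed by the files on chromosome 5 (mm9, 117082490 to 117082549), away from the Gstm genes. The other Gstm1 probe, on chromosome 3 within the Gstm cluster, gave −0.13 (SE 0.28) and was not called. Gstm2 ran from 3.06 to 3.71 in Cre control and from 2.58 to 3.09 in BRAFV600E, with 5 of 6 arrays below every control, and fell by 0.48 (SE 0.14, limma adjusted p = 0.0409).

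The other 4 mu genes were not called and had log2 fold changes of −0.49 (Gstm4), −0.21 (Gstm6), 0.17 (Gstm5) and 0.47 (Gstm7). Under MEKi all 7 mu genes had negative values, from −0.56 to −0.09, and none was called. Gstm3, the mu gene with the largest fall in BRAFV600E tissue, had levels of 5.58, 6.47, 5.21 and 6.58 under MEKi and 5.68, 6.31, 5.96 and 6.26 in Vehicle. Those arrays overlapped fully, with a log2 fold change of −0.09 (SE 0.33).

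Of the theta class, which handles small halogenated compounds among others, Gstt2 and Gstt3 rose and Gstt1 was not called. Gstt3 ran from 2.53 (median 2.74) to 3.02 in Cre control and from 3.17 (median 3.39) to 3.65 in BRAFV600E, with no overlap and a difference of 0.63 (SE 0.13, limma adjusted p = 0.00984). Gstt2 ran from 1.18 to 2.12 and from 1.96 to 2.58, with 5 of 6 BRAFV600E arrays above every control and a difference of 0.66 (SE 0.17, limma adjusted p = 0.0249). The log2 fold change of Gstt1 was −0.39 (SE 0.14, limma adjusted p = 0.0795). Under MEKi the values of the 3 genes were −0.22 (Gstt2), −0.01 (Gstt3) and 0.15 (Gstt1), none of them called.

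The remaining glutathione transferases were not called in either comparison by the probe that stood for the gene. Gstp2, of the pi class that is abundant in many epithelia, had a level of 6.89 to 7.51 in Cre control and 6.62 to 7.39 in BRAFV600E, with a log2 fold change of −0.16 (SE 0.17), and of −0.02 (SE 0.14) under MEKi. Its neighbour Gstp1 had 0.43 and Gstp3 had 1.18 (SE 0.37, limma adjusted p = 0.0558) in BRAFV600E tissue. The Gstp3 value was 1.44 with an adjusted p of 0.0180 without BRAFV600E replicate 2. Gstk1, a mitochondrial and peroxisomal enzyme, had −0.69 (SE 0.25), and Gstz1, which also acts in tyrosine breakdown, had −0.37 (SE 0.15).

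The omega class gene Gsto1 (0.25, SE 0.22) and the microsomal gene Mgst3 (0.21, SE 0.21) each had another probe with a higher value. For Gsto1 this was 0.71 (limma adjusted p = 0.0454 over all probes) and for Mgst3 0.74 (0.0141). Mgst2, a membrane enzyme that can also make leukotriene C4, had −0.17 (SE 0.20), and Mgst1 had 0.41 (SE 0.24). In all, 5 of 23 glutathione transferases were called higher and 3 lower in BRAFV600E tissue, beside 6.19% and 6.27% of all genes. Under MEKi 21 of the 23 had negative values and a median log2 fold change of −0.20.

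Among the sulfotransferases, 1 of 10 tested genes rose in BRAFV600E tissue and 2 fell, beside 6.19% and 6.27% of all genes. Sult6b2, a sulfotransferase of little-known substrate, ran from −2.80 (median −1.97) to −0.36 in Cre control and from −0.76 (median 1.07) to 3.59 in BRAFV600E. The ranges overlapped, with 4 of 6 BRAFV600E arrays above every control, and the log2 fold change was 2.79 (SE 0.70, limma adjusted p = 0.0238), or 6.90-fold. Under MEKi its levels were −5.63, −6.09, −4.47 and −4.88, of which 2 were well above background, against −3.52, 3.69, −2.19 and −2.45 in Vehicle, all 4 of them well above background. Sult6b2 thus entered this comparison mainly through Vehicle, where it was high, and its MEKi level rests on values at or near background. The fitted difference of −4.15 (SE 1.43, limma adjusted p = 0.199) was not called and is no measured size. Without Vehicle replicate 2 it was −2.54, with a limma adjusted p of 0.0450. That fit rests on the same MEKi values at or near background, so −2.54 is no measured size either.

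Sult4a1, a sulfotransferase known mainly from brain and without a firmly established activity, was low in every group. It ran from −2.24 (median −2.03) to −1.65 in Cre control and from −3.04 (median −2.75) to −2.61 in BRAFV600E, without overlap, and fell by 0.79 (SE 0.14, limma adjusted p = 0.00383). Sult1a1, which sulfates phenols, ran from −0.72 to −0.04 in Cre control and from −1.18 to −0.54 in BRAFV600E and fell by 0.57 (SE 0.16, limma adjusted p = 0.0407), with 5 of 6 arrays below every control.

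In the MEKi comparison Sult1a1 had levels of −1.67, −1.98, −1.38 and −1.66 against −0.81, −1.34, −1.06 and −1.30 in Vehicle. The difference was −0.55 (SE 0.18, limma adjusted p = 0.176), so that its values were negative in both comparisons. Sult1d1, which sulfates catecholamines and other phenols, had levels of 2.82, 2.99, 3.04 and 3.00 under MEKi and 3.53, 4.16, 3.15 and 3.76 in Vehicle, which differed by −0.69 (SE 0.21, limma adjusted p = 0.156). Neither gene's MEKi and Vehicle arrays overlapped, though neither was called.

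Sult1b1, a sulfotransferase of thyroid hormones and phenols, had levels of 5.56, 5.76, 5.74 and 5.68 under MEKi and 5.45, 5.37, 5.49 and 5.37 in Vehicle, the 1 member whose MEKi arrays all lay above Vehicle. The log2 fold change was 0.27 (limma adjusted p = 0.266), and its second probe gave 0.72. In BRAFV600E tissue the same 2 probes gave −0.22 and −0.66, the latter with an adjusted p of 0.0137 over all probes (limma). Sult2b1, the cholesterol sulfotransferase, had log2 fold changes of 0.07 (SE 0.24) and −0.15 (SE 0.19), and Sult5a1 of 0.12 (SE 0.72) and 0.08 (SE 0.32).

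Among the 12 tested UDP-glucuronosyltransferases, 1 was called in BRAFV600E tissue and none under MEKi, beside 12.5% and 1.98% of all genes. Ugt2a3, an intestinal and hepatic enzyme known to act on bile acids, ran from 2.79 (median 2.99) to 3.16 in Cre control and from 1.18 (median 2.0) to 2.74 in BRAFV600E, without overlap. It fell by 0.97 (SE 0.25, limma adjusted p = 0.0273). Under MEKi it had levels of 2.70 to 3.34 against 2.30 to 2.97, a log2 fold change of 0.30 (SE 0.20).

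The bilirubin and phenol group was represented by 3 Ugt1a genes. Ugt1a6b, whose probe is listed for 4 genes, had a level of 5.77 to 6.37 in Cre control and 5.98 to 6.22 in BRAFV600E, a log2 fold change of −0.06 (SE 0.12), and of −0.27 (SE 0.19) under MEKi. The first-exon probe of Ugt1a6b gave 0.87 (SE 0.54) and −0.83 (SE 0.55). Ugt1a10, a glucuronosyltransferase of the gut, had 0.26 (SE 0.36) and −0.73 (SE 0.48). Ugt3a2, which uses sugars other than glucuronic acid, had 0.39 (SE 0.48) in BRAFV600E tissue and −0.92 (SE 0.29, limma adjusted p = 0.174) under MEKi. Under MEKi 11 of 12 genes of the class had negative values, with a median log2 fold change of −0.74.

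That median moved with 1 array, and without Vehicle replicate 2 it was −0.08, with 9 of 12 genes negative. Vehicle replicate 2 was the highest array of its group for 26 of 45 members, and by more than 1 log2 unit for 10: Gsta4, Gsto2, Gstt1, Sult1c2, Sult6b2, Ugt2b5, Ugt2b35, Ugt2b36, Ugt2b37 and Ugt2b38. BRAFV600E replicate 2 was the highest of its group for 17 members, and by more than 1 log2 unit for 8 of the same genes, all but Gsto2 and Gstt1. Ugt2b38, of the steroid and xenobiotic glucuronosyltransferases, had a level of 5.07 on Vehicle replicate 2 and of 0.10, −0.12 and 0.25 on the other Vehicle arrays, and 4.26 on BRAFV600E replicate 2 against −0.14 to 1.20 on the other 5. Ugt2b34, at the start of the same cluster, was also highest of its group on these arrays, but by 0.21 and 0.19 log2 units, and stayed between 4.45 and 5.50 on all 20 arrays.

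Pancreatic transcripts marked the first of these arrays and not the second, since their mean was 6.87 on Vehicle replicate 2 and −5.00 on BRAFV600E replicate 2. Hepatocyte markers had means of −3.34 to −2.10 over all 20 arrays. With all arrays, Ugt2b5, Ugt2b35, Ugt2b36, Ugt2b37 and Ugt2b38 had MEKi log2 fold changes of −1.47 to −0.75 (SE 0.85 to 1.15). Without Vehicle replicate 2 these were −0.30 to 0.16. In BRAFV600E tissue the 5 genes had values of −0.34 to 0.60, and of −0.74 to 0.06 without BRAFV600E replicate 2. None was called in any of the 4 fits.

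**Figure D3:**
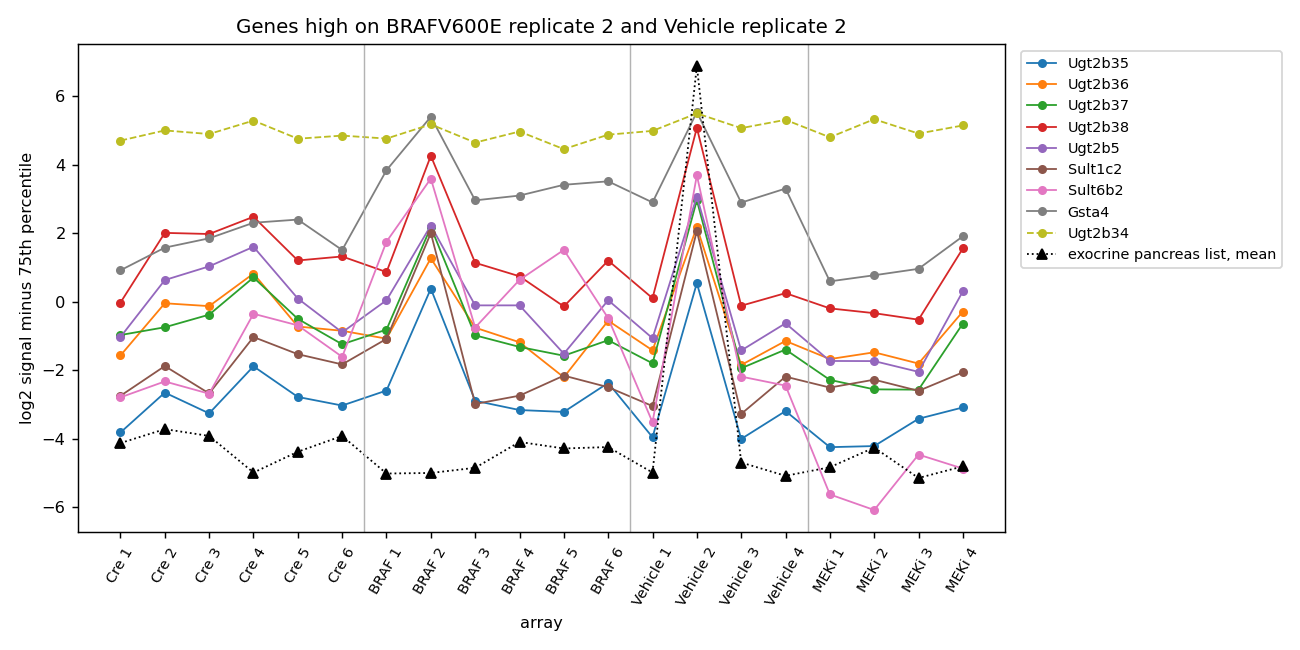
Level (log2 signal minus the 75th percentile of the array) of 8 transferase genes that were highest on BRAFV600E replicate 2 and Vehicle replicate 2, of Ugt2b34 (dashed) and of the mean of the exocrine pancreas list (dotted), on each of the 20 arrays. The 8 lines peak together on those arrays, the pancreas mean peaks at 6.87 on Vehicle replicate 2 only, and Ugt2b34 stays between 4.45 and 5.50 (highest of its group on both arrays, by little).

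The slides bear on the first comparison. Slide 1 held all 6 Cre control arrays with BRAFV600E replicates 1 and 2. The estimate within it is also that of the fit with slide as a block. It had the same direction as the value from all arrays for all 12 called genes. These arrays are among those that gave the calls, so the like directions are no separate evidence. Within slide 1, 4 members were called (Gsta4, Sult6b2, Gstm3 and Ugt2a3), and with slide as a block 7 were (those 4 with Gsta2, Sult4a1 and Sult1c2). Log2 fold changes within slide 1 were 2.86 for Gsta4, 0.98 for Gsta2, −1.30 for Gstm3 and −0.85 for Sult4a1. Sult6b2 had 4.42 and Ugt2a3 −1.53, larger by over 1.5 times than with all arrays. BRAFV600E replicate 2 is 1 of the 2 arrays behind those estimates.

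Set side by side, all 6 members that rose in BRAFV600E tissue had negative MEKi values, which for the 5 measured on every array ran from −2.60 for Gsta4 to −0.01 for Gstt3, as did 92.1% of the 1178 genes of all kinds that rose there and were tested under MEKi. Gsta2 was the 1 of the 6 also called lower under MEKi, beside 10.2% of those 1178 genes. Of the 6 members that fell in BRAFV600E tissue, Ugt2a3 (0.30, SE 0.20) and Sult4a1 (0.32, SE 0.25) had positive MEKi values. Negative ones were those of Gstm1 (−0.38, SE 0.32), Gstm2 (−0.40, SE 0.25), Gstm3 (−0.09, SE 0.33) and Sult1a1 (−0.55, SE 0.18). None of these 6 was called under MEKi, and Vehicle replicate 2 was the highest Vehicle array for Gstm1, Gstm2 and Gstm3. Of the 1159 genes of all kinds that fell, 90.7% had positive values. Over all 45 members, 27 (60%) had opposite signs in the 2 comparisons, beside 70.2% of 18574 genes. The comparisons share no arrays. Whether the 2 effects differ in size was not tested.

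**Figure D4:**
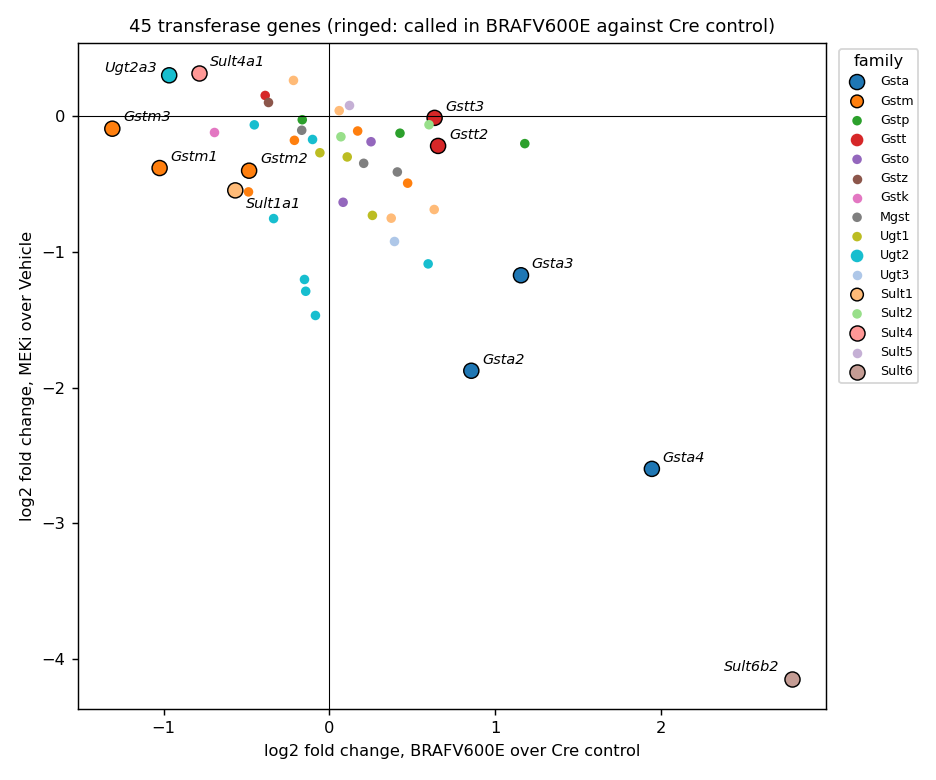
Log2 fold change of the 45 tested transferase genes in BRAFV600E against Cre control (x axis) and in MEKi against Vehicle (y axis), 1 point per gene, coloured by family, with the 12 genes called in the first comparison ringed and named. Sult6b2 and the 3 Gsta genes lie at the lower right, and the 3 ringed Gstm genes at the left lie below 0 on both axes.

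Neighbouring members of a cluster did not always have like values. Within 1 Mb of another member lay 47 of the 60 genes, in 11 clusters, and 13 stood alone (mm9 positions from the files). In the Gstm cluster on chromosome 3 (107701511 to 107846847), in the order Gstm5, Gstm7, Gstm6, Gstm3, Gstm2, Gstm1 and Gstm4, Gstm3 and Gstm2 were neighbours and were called lower, while Gstm5 and Gstm7 at the other end had positive values of 0.17 and 0.47. In the 686 kb cluster on chromosome 5 (87318849 to 88005246), Ugt2a3 was called lower between Ugt2b37 (−0.08) and Ugt2b38 (−0.15). On chromosome 10 the theta genes spanned 58.3 kb (75236966 to 75295265), with Gstt3 and Gstt2 called higher on either side of Gstt1 (−0.39).

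**Figure D5:**
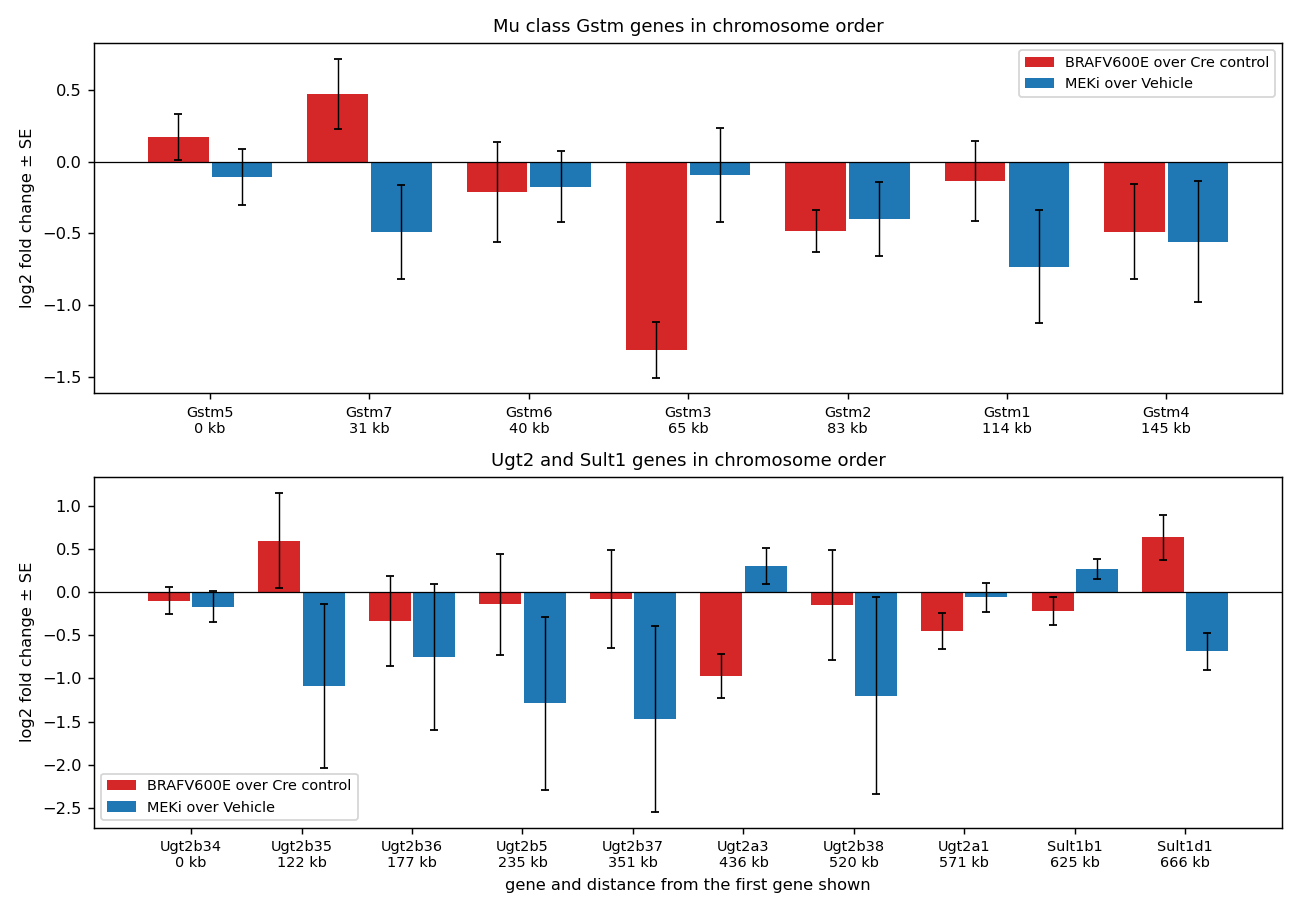
Log2 fold change (bars, ± SE) of the members of 2 gene clusters in BRAFV600E over Cre control and MEKi over Vehicle, in chromosome order, with the distance in kb from the first gene shown under each name; Gstm1 is drawn with its chromosome 3 probe (−0.13). Gstm3 at −1.31 and Ugt2a3 at −0.97 stand between neighbours with smaller values.

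Promoter sequence from RefSeq (GRCm38.p6, 250 bases before to 50 after the start) was matched by symbol for 52 of the 60 members and searched on both strands for 3 motifs. Some members had more than 1 promoter, and a member was counted where any of its promoters matched. The core of the antioxidant response element, TGACNNNGC, to which NRF2 binds with a small MAF protein, was found in 4 of 52 members (7.69%, beside 14% of all 27025): Gsta3, Gstm5, Gstm7 and Mgst1. The AP-1 letters TGANTCA, at which FOS and JUN proteins bind downstream of MAP kinases, were found in 13 of 52 (25%, beside 8.97% of all), among them Gstp1, Gstp2, Gstm5, Mgst2, Sult1b1 and Sult2b1. A promoter was at hand for 9 of the 12 called genes (not for Gsta4, Gstt2 and Sult4a1), and none of those 9 was among the 13. The palindromic HNF1 motif was found in 1 (Ugt3a1), beside 0.0481% of all. The letters of an AP-1 match can lie next to or within an antioxidant core, and a match is a description only. Other forms of these elements were not searched, so a member without a match may still hold one.

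The 150 bases before the start are printed here for 4 genes, with the matched letters in capitals. Gsta2 (chr9:78347146-78347295, minus strand) is shown as the member called in both comparisons, and it had no match. Gsta3 (chr1:21240435-21240584, plus strand) is the 1 of the 9 called members searched that had an antioxidant core.
Gsta2: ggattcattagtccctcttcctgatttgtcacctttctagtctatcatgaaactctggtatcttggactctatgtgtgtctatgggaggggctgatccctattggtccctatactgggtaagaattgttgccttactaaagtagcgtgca
Gsta3: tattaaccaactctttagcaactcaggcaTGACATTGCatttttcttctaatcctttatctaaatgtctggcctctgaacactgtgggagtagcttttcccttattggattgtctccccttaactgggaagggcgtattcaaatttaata

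Gstp1 (chr19:4037913-4038062, minus strand) and Gstp2 (chr19:4042222-4042371, minus strand) show how close neighbouring members can be, with a shared run of 34 bases that holds the AP-1 letters. Their log2 fold changes in BRAFV600E tissue were 0.43 and −0.16, neither of them called.
Gstp1: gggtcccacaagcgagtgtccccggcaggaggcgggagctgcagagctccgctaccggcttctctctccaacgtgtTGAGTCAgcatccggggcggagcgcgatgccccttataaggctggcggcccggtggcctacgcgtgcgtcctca
Gstp2: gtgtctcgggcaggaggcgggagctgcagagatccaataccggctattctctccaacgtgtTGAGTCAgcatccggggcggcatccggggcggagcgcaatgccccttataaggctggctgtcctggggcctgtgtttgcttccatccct

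Genes that feed, accompany or follow the transferases were taken from lists of known function. Of 14 NRF2 targets outside the transferases tested in BRAFV600E tissue, 4 rose and none fell, beside 6.19% and 6.27% of all genes: the reductases Akr1b8 (log2 fold change 2.49, SE 0.30) and Cbr3 (1.51), and the NADPH-making enzymes Me1 (1.81) and G6pdx (0.77). Nqo1, the quinone reductase often used to read NRF2 activity, had 0.63 (SE 0.19, limma adjusted p = 0.0505), and Hmox1 had −1.06 (SE 0.42). Under MEKi none of 15 was called, with Nqo1 at −0.82 (SE 0.24). Of the 20 regulators, 5 rose, beside 6.19% of all genes. They were Nfe2l2 (NRF2 itself, 0.52), its small partners Maff (0.96) and Mafk (0.43), and the epithelial factors Hnf4a (0.60) and Gata4 (0.49). Under MEKi 1 of the 20 was called, Maff, which fell by 1.08, beside 0.884% of all genes.

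For the cofactors, 1 of 11 genes of glutathione supply rose in BRAFV600E tissue (beside 6.19% of all genes), the cystine transporter subunit Slc3a1 (0.64). Gclc and Gclm, the 2 subunits of the enzyme that begins glutathione synthesis, had log2 fold changes of 0.24 (SE 0.23) and 0.21 (SE 0.15), and Gclc had −0.95 (SE 0.19, limma adjusted p = 0.0519) under MEKi. Of 12 genes for glucuronic acid and sulfate donors, 3 rose in BRAFV600E tissue, beside 6.19% of all genes. They were Ugp2 (0.76), which makes UDP-glucose, the glucuronide-cleaving Gusb (0.94) and the sulfatase Arsa (0.57). Under MEKi 2 of the 12 fell, Ugp2 by 0.70 and the sulfate transporter Slc26a2 by 0.62, beside 0.884% of all genes.

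Of 9 genes of conjugate transport, the exporter Abcc5 rose (1.06, SE 0.22) and the prostaglandin transporter Slco2a1 fell by 2.12 in BRAFV600E tissue. That is 1 higher and 1 lower, beside 6.19% and 6.27% of all genes. Under MEKi 3 of 9 fell, Abcc5 (−1.42, SE 0.26) and the drug efflux pumps Abcb1a (−1.67, SE 0.33) and Abcb1b (−1.74, SE 0.31), beside 0.884% of all genes, and the list's median log2 fold change was −0.66. The MEKi and Vehicle arrays of these 3 genes, picked because they were called, did not overlap. Of all genes, 5.76% had MEKi wholly below Vehicle. Abcc2, the main apical exporter of conjugates, had −0.62 (SE 0.24, limma adjusted p = 0.255). Among the other conjugating enzymes, Nat2 (0.58) and Tpmt (0.65), which acetylate and methylate drugs, rose in BRAFV600E tissue (2 of 10, beside 6.19% of all genes). Of 12 glutathione transferase relatives, Clic1 (0.62) and Eef1g (0.58) rose there and Hpgds, the prostaglandin D synthase, fell by 0.60. That is 2 higher and 1 lower, beside 6.19% and 6.27% of all genes. None of either list was called under MEKi.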

How the data were processed

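Total RNA from intestinal tissue of 20 mouse samples was labelled with Cy3 and hybridised to 1-colour Agilent arrays, 1 per sample (6 Cre control, 6 BRAFV600E, 4 MEKi and 4 Vehicle). The authors scanned them and ran Agilent Feature Extraction (version 10.5.1.1, per the submitters' processing notes), which gave the deposited intensity values: the processed signal, corrected for background, and the mean and background signals of each spot. The deposited files also hold, per the file headers, other columns, marks of 0 or 1 that say whether a spot was an outlier, saturated or well above background. The deposited table of processed values matched the scanner signal within 0.5% on 100% of spots and was used only for the fits without scaling between arrays. Of 62976 spots, 59305 were not controls, for 56605 probes.

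Probes were named through the RefSeq tables by accession (34023), symbol (9993) or older symbol (318), and the remaining 12271 without a symbol were not tested. The arrays carried 2 versions of gene names, which gave 84 and 90 member probes, and the second was used for all. Spots of a probe were averaged after leaving out outlier marks. The main values were log2 of the processed signal minus the array's 75th percentile. A probe entered a comparison where 6 or more of 12, or 4 or more of 8, arrays had it well above background, and the brightest such probe stood for its gene. Each comparison was fitted by itself on its own arrays with limma 3.58.1 (lmFit and eBayes) in R 4.3.3, with no covariate, and p-values were adjusted by Benjamini-Hochberg over all genes tested. Tested on simulated data with these arrays' means and spread, the fit recovered 41% of 100 genes changed by 1 log2 unit and 75% of 100 changed by 2 in BRAFV600E against Cre control (31042 probes), and 35% and 73% in MEKi against Vehicle (31755 probes). The simulation changed only these genes, a far smaller share than the 12.5% called in the real BRAFV600E fit. It drew the spread of each probe separately, with no slide or array effect. The recovered shares are therefore not the sensitivity of the real fits. The number of arrays limits the precision, and no depth exists for arrays.

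The genes named with values were all called members and the brightest member of each family (24 in all), with further members where a result turned on them (an array that stood apart, groups without overlap, a second probe), chosen after their values were seen. The members and all gene lists were chosen with earlier results of these data known. Alternatives were normexp background correction (offset 50), quantile normalization, no scaling, other filters, the mean of a gene's probes, eBayes with trend and robust, array weights, the Y-linked signal as a covariate, a fold change requirement, slide as a block or within slide 1, and leaving out each array.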

Additional observations from a re-analysis of the deposited data

Results flagged for a closer look

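Among the 24 named genes in 4 groups each, 9 of 96 groups (9.38%) had an array whose gap to its nearest neighbour was large against the range of the group, where chance gives about 1 in 20. Vehicle replicate 2 was such an array for Gsta4 (level 5.53, next 3.30) and Gstt1 (4.72, next 3.13), and BRAFV600E replicate 2 for Gsta4 (5.40, next 3.84). The exocrine pancreas mean was 6.87 on the first and −5.00 on the second of these arrays, and the part of either in the values was not tested.

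BRAFV600E replicate 2 was also the lowest of its group for Sult4a1 (−3.04, next −2.77). BRAFV600E replicate 4 was lowest for Gsta2 (6.89, next 7.18) and for Sult5a1 (−6.44, next −4.01). BRAFV600E replicate 3 was lowest for Gsto1 (5.52, next 6.34), BRAFV600E replicate 6 for Ugt3a2 (−3.61, next −2.78), and Cre control replicate 1 for Gstk1 (3.30, next 4.23).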

How the results depend on the processing

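No paired analysis was possible because the labels give no replicate numbers that the groups share. In BRAFV600E against Cre control 12 members were called, and 9 to 14 under the alternatives of background correction, normalization, filter, probe choice, variance model, array weights, Y-linked covariate and fold change. The count was 20 (all higher) without scaling between arrays, 7 with slide as a block and 4 within slide 1, and 6 to 12 when 1 array was left out (6 without Cre control replicate 2, and 8 without Cre control replicate 3 or BRAFV600E replicate 6). Without scaling the median log2 fold change of all genes was 0.79 instead of −0.02, and 18 members turned from negative to positive (0.020 to 0.75). Of these, 5 were called with or without scaling, Gstm2 (0.33), Gstp2 (0.64), Sult1a1 (0.24), Sult4a1 (0.020) and Ugt1a6b (0.75), and 13 in neither fit. Relative to that median, all 12 called genes kept their direction. This could not be otherwise, because leaving out the scaling moves them all by the same amount. Normexp correction moved the median of all genes by −0.12. Of 25 fits in all, Gsta4 was called in 25, Gsta2 and Gstm3 in 24, and Gstm2, Gsta3 and Sult1a1 in 12, 10 and 9.

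In MEKi against Vehicle 1 member was called (Gsta2, in 11 of 19 fits, with limma adjusted p from 0.0129 to 0.131). The count was 0 without scaling, 0 where the Y-linked signal was a covariate, 3 with array weights (Gsta2, Gsta4 and Ugt3a2), and 0 to 3 when 1 array was left out. It was 0 without MEKi replicate 1 or 3 or Vehicle replicate 1, 3 or 4, and 3 without Vehicle replicate 2 (Gsta2, Gsta4 and Sult6b2). Among those 3, Sult6b2 had MEKi values at or near background. Without MEKi replicate 2 the 1 gene called was Ugt3a2. The cause of these changes was not tested. How many arrays a group has, and how far a dim probe lies above background, limits what could be called, as for Sult5a1 and Sult6b2.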
